A study of Saccharomyces cerevisiae with 12 samples.

Results

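A set of 52 genes of Saccharomyces cerevisiae known only by a systematic name differed strongly between wine yeast in the bottles of a second fermentation and the same strain growing in rich medium. A systematic name gives the chromosome, the arm, a running number and the strand, and it is what an open reading frame keeps until someone assigns it a gene name. The members were chosen by these array values themselves: they are unnamed genes with a probe set of their own whose mean over the 9 bottle arrays lay at least 2 above or below the mean of the 3 reference arrays on the log2 scale, with the higher mean above 6. Of the 339 unnamed genes with such a probe set, 43 were higher in the bottles and 9 were lower. The arrays hold 5449 genes tested in all. The level minimum of 6 removed none. After quantile normalization over genes, the same thresholds gave 31 higher and 12 lower genes, 40 of them among the 52. In the RefSeq annotation (assembly R64) all 52 still carry only the systematic name, and all are annotated as protein coding.

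The strain was EC1118, a commercial wine yeast. Second fermentation is the step that turns base wine into sparkling wine in a closed bottle. Yeast adapted to ethanol was added to base wine with 20 g/L of sucrose, and bottles of 350 mL stood at 16 °C. Samples date from day 7, with an ethanol increase of 0.26%, from day 15, with 0.89%, and from day 19, with 1.27%. The reference was an external culture of EC1118 in YPD at 28 °C, in exponential growth at an optical density of 1.0 with no stress applied. Each of the 4 groups has 3 arrays called biological replicates by the labels. For the bottles the labels name independent tirage assays; whether the reference arrays come from separate cultures is left unsaid, so the spread there may be technical. Growth phase, ethanol, temperature and medium all separate the bottles from the reference and cannot be told apart.

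Many unnamed yeast genes encode members of enzyme families whose substrate in the cell is not settled, and some are second copies left by the ancient duplication of the yeast genome. Others have no recognised relative. Yeast that leaves rapid growth on glucose is known to lower the genes of growth and to raise those of stress defence, respiration and storage, and genes of unknown function are found among both. The roles given here are background knowledge and not results of these arrays. A role or a duplicate could be given for 28 members and was left out for the other 24.

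All values are log2 probe set levels, and a difference of 1 is a doubling. Between replicates of a bottle day the lowest correlation across genes was 0.892 for day 7, 0.917 for day 15 and 0.817 for day 19. The reference arrays lay closer together, with 0.987 or more. The median absolute deviation of an array from the mean of the 9 bottle arrays, over all genes, was 0.368 on replicate 1 of day 19, 0.345 on replicate 1 of day 7 and 0.340 on replicate 3 of day 19, and at most 0.289 on the other 6. Earlier results had set the replicates 1 of day 7 and day 19 apart, so values without that pair are given beside results that rest on it, and values without replicate 3 of day 19 where it matters too. The 17 control probe sets for ribosomal RNA averaged 12.20 ± 1.02 at day 7, 12.37 ± 0.515 at day 15 and 12.28 ± 0.791 at day 19, against 6.40 ± 1.34 in the reference (SD, n = 3 each). The part of this shift in the differences below was not tested. The probes follow a reference genome sequence and not that of EC1118, and the effect of sequence differences was not tested either.

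**Figure D1:**
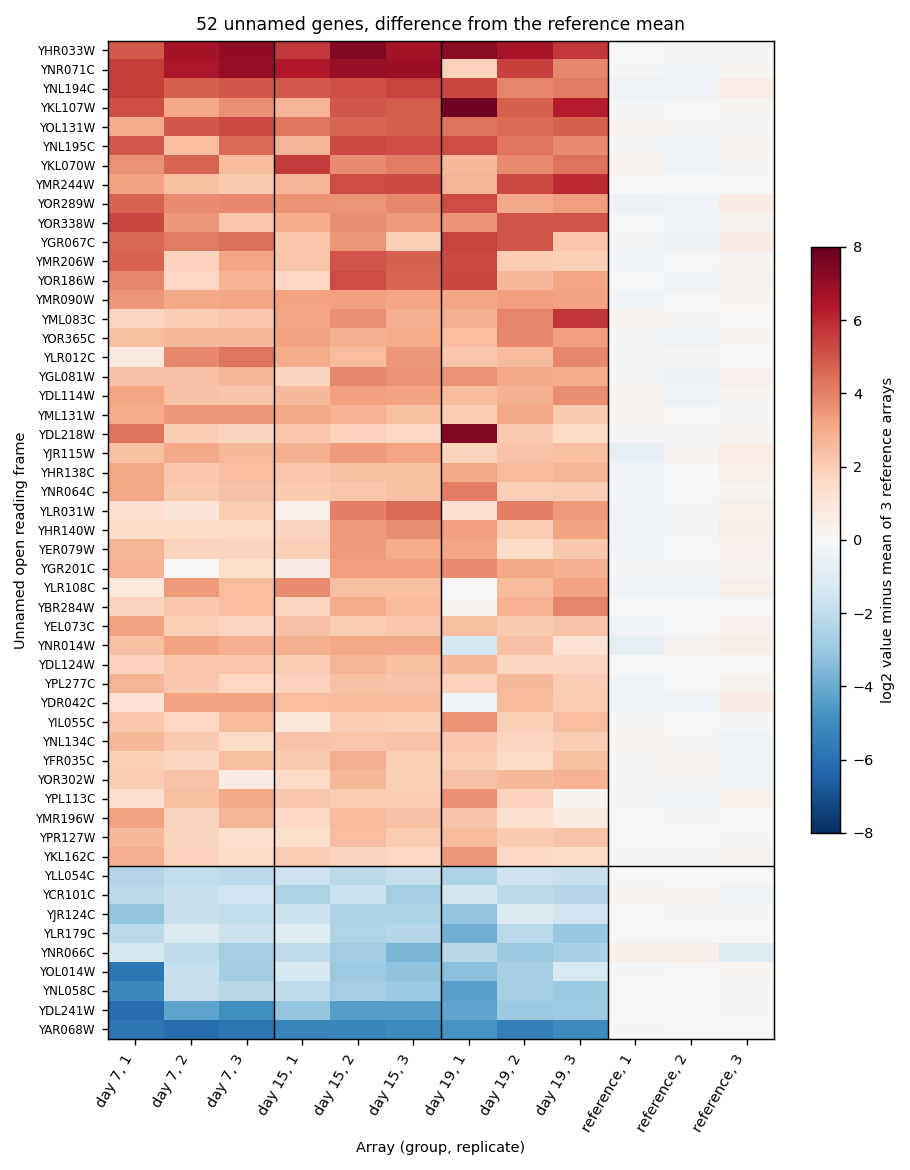
Each row is an unnamed gene and each column an array, with the 3 bottle days left of the reference, and colour gives the log2 value minus the mean of the 3 reference arrays. The 43 genes above the horizontal line were higher in the bottles and the 9 below it lower; single arrays depart from the rest of their row, as day 19 replicate 1 does for YNR071C, YDL218W and YNR014W.

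Bottle and reference arrays did not overlap for 38 of the 43 higher genes and for 9 of the 9 lower ones. Over all 5449 genes 20.9% lay above the reference on every bottle array and 24% below it, and 6.96% and 1.71% passed the difference and level thresholds upward and downward. The 5 higher genes whose arrays overlapped were YGR201C, YLR108C, YNR014W, YDR042C and YPL113C. The rule used this contrast, so these counts describe the members and carry no test. The differences of the higher genes had a median of 2.65 and reached 6.43, and those of the lower genes had a median of -2.48 and reached -5.39. The median over all genes was -0.04. The median level of the higher genes was 9.99 in the bottles and 6.91 in the reference, where that of all genes was 10.10.

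YHR033W on chromosome VIII had the largest difference. Its duplicate PRO1 encodes glutamate kinase, which starts proline synthesis, and YHR033W itself has no settled role. Its level was 10.01, 11.75 and 12.23 at day 7, 10.76, 12.49 and 11.78 at day 15 and 12.35, 11.67 and 10.74 at day 19, against 5.13, 5.20 and 4.99 in the reference. The lowest bottle array lay far above the highest reference array, and the difference of the means was 6.43, an 85.9-fold change.

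YNR071C on chromosome XIV, a putative aldose 1-epimerase, came next with a difference of 5.61. It lay at 12.17, 13.15 and 13.65 at day 7, 13.005, 13.59 and 13.48 at day 15 and 8.49, 12.11 and 10.49 at day 19, against 6.69, 6.41 and 6.76 in the reference. All bottle arrays were above the reference, and the 3 of day 19 were below the others. Without the replicates 1 of day 7 and day 19 its difference was 6.16.

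YNL194C and YNL195C are neighbours on chromosome XIV and were both high. YNL194C encodes a membrane protein of the family of Sur7, a component of the furrows of the plasma membrane called eisosomes, and YNL195C is of unknown function. YNL194C had a bottle median of 12.57 between a lowest value of 11.54 and a highest of 13.16, against 7.23, 7.40 and 8.22 in the reference. YNL195C had a bottle median of 13.06 between 11.03 and 13.85, against 8.62, 8.33 and 8.71 in the reference. The groups did not overlap for either gene. The differences were 4.90 and 4.26, and without the replicates 1 of day 7 and day 19 they were 4.75 and 4.03.

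YKL107W and YOL131W were above background on none of the reference arrays, where background is the 0.95 quantile of the probe sets for Schizosaccharomyces pombe on the same array. YKL107W, of the short-chain dehydrogenase family, lay at 9.22, 7.20 and 7.78 at day 7, 6.78, 9.06 and 8.92 at day 15 and 11.85, 8.84 and 10.39 at day 19, against 3.92, 4.07 and 4.28 in the reference. It was at least 17.4-fold higher in the bottles, with all bottle arrays above background. YOL131W, of unknown function, had a bottle median of 8.39 between 6.70 and 9.001, against 3.90, 3.65 and 3.63 in the reference. It was at least 11.1-fold higher. YFR035C and YPL277C were also above background on no reference array and were at least 3.65-fold and at least 2.40-fold higher. For YPL277C this holds only for the probe set with sequence of its own. A second one, with sequence shared with other genes, averaged 9.18 in the reference and 11.36 in the bottles.

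The remaining 4 of the 10 largest differences belonged to YKL070W with 3.88, YMR244W with 3.88, YOR289W with 3.87 and YOR338W with 3.86. YKL070W had a bottle median of 9.02 between 7.77 and 10.84, against 5.43, 4.92 and 5.31 in the reference. YMR244W lay at 9.96, 9.16 and 8.86 at day 7, 9.47, 11.96 and 12.05 at day 15 and 9.50, 12.01 and 12.70 at day 19, against 6.69, 6.76 and 6.80 in the reference. The 3 arrays of day 7 and the replicates 1 of day 15 and day 19 lay well below the other 4 bottle arrays. YOR289W had a bottle median of 10.40 between 9.68 and 11.84, against 6.18, 6.42 and 7.33 in the reference, and YOR338W one of 11.07 between 9.68 and 12.80, against 7.51, 7.15 and 7.78. For none of these 4 genes did the bottle arrays reach down to the reference.

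**Figure D2:**
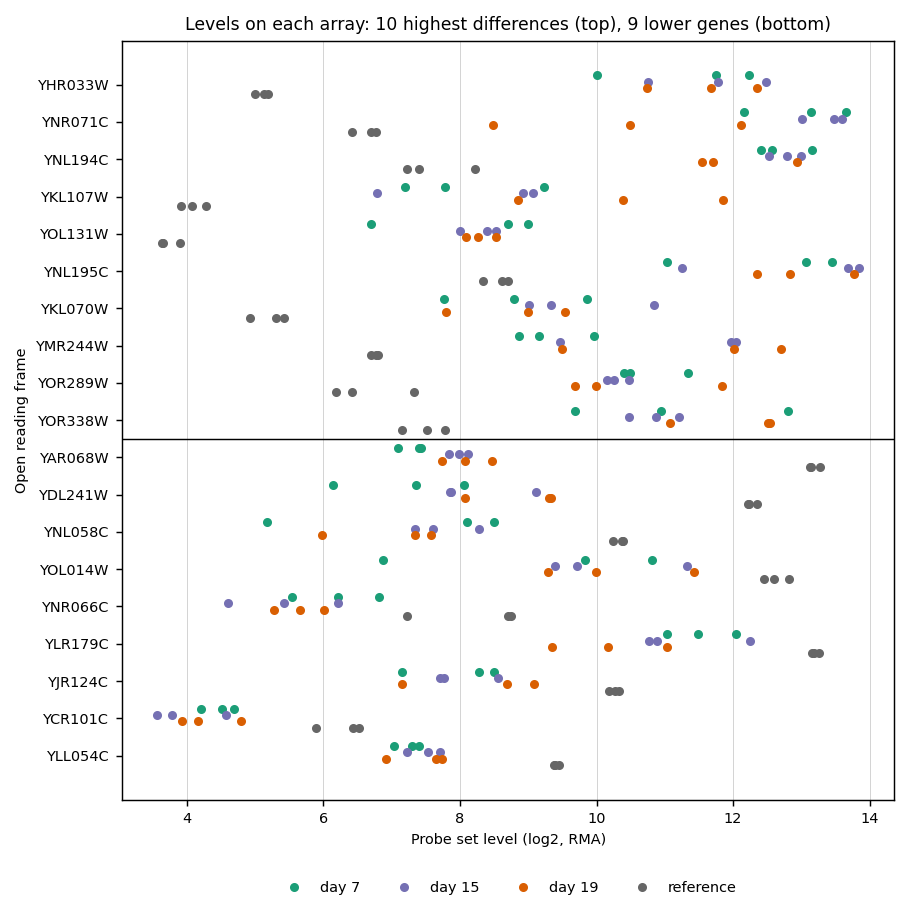
Points are the log2 levels on single arrays, coloured by day 7, day 15, day 19 and reference, for the 10 genes with the largest positive differences (top) and the 9 lower genes (bottom). In none of these 19 genes do the bottle arrays overlap the reference, and the spread among bottle arrays exceeds that among reference arrays for most of them.

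Of the 43 higher genes, 7 are known as members of oxidoreductase families, with differences between 2.05 and 4.80 and a median of 2.16. Families were looked up for the members alone, so no share among other genes is given. Besides YKL107W they are YDL114W, another short-chain dehydrogenase relative, YML131W, of the medium-chain dehydrogenases, YPL113C, a relative of 2-hydroxyacid dehydrogenases, the aldo-keto reductase relatives YDL124W and YPR127W, and YNL134C, known as an aldehyde reductase. YML131W lay at 12.55, 13.05 and 13.10 at day 7, 12.70, 12.40 and 11.996 at day 15 and 11.63, 12.69 and 11.68 at day 19, against 9.74, 9.56 and 9.54 in the reference. YDL124W averaged 12.86 in the bottles and 10.70 in the reference, and YNL134C averaged 12.51 in the bottles and 10.40 in the reference, so both were well expressed in growing cells too. Their bottle arrays spread little, with standard deviations of 0.374 and 0.310 (n = 9). YPL113C was the exception in the group: its day 19 value of 7.85 on replicate 3 fell within the reference values of 7.53, 7.45 and 8.08.

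Other relatives of metabolic enzymes were higher as well. YNR064C, an epoxide hydrolase, had a bottle median of 7.02 between 6.74 and 8.90, against 4.60, 4.83 and 5.05 in the reference. YBR284W, a relative of AMP deaminase, had a bottle median of 9.35 between 7.07 and 10.83, against 6.94, 6.94 and 6.86 in the reference. Its lowest bottle array was replicate 1 of day 19, just above the reference. YMR090W, of unknown function, had the lowest standard deviation over the 9 bottle arrays of all members, 0.146. Its bottle arrays lay between 12.37 and 12.89, against 9.13, 9.38 and 9.50 in the reference.

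Genes tied to gene control or to the membrane stood on both sides. YGR067C carries a zinc finger like that of Adr1, the activator of genes for growth on ethanol and fatty acids. It lay at 9.98, 9.56 and 9.80 at day 7, 7.64, 8.92 and 7.34 at day 15 and 10.80, 10.45 and 7.57 at day 19, against 5.27, 4.93 and 6.05 in the reference. YLL054C, which encodes a protein with a zinc cluster of the fungal type, was lower, with a bottle median of 7.40 between 6.92 and 7.74, against 9.37, 9.44 and 9.38 in the reference. Of the membrane proteins, YOR365C, related to the flavin carriers of the Flc family, was higher by 2.94 and YJR124C, of the major facilitator superfamily of transporters, lower by a difference of -2.16.

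YOR302W is not a free-standing gene. It is the leader reading frame of CPA1, upstream of the coding sequence on the same messenger, and encodes the peptide through which arginine is known to hold back the translation of CPA1, a subunit of carbamoyl phosphate synthetase. Its coding length is 78 bases, the shortest of the set. It lay at 12.39, 12.68 and 11.05 at day 7, 11.98, 13.05 and 12.31 at day 15 and 12.78, 12.98 and 13.18 at day 19, against 10.52, 10.53 and 10.17 in the reference. The probe set of CPA1 itself was higher by 1.39 ± 0.228 at day 7, 1.44 ± 0.228 at day 15 and 1.75 ± 0.228 at day 19 (limma, standard error, adjusted p = 0.00103, 0.000698 and 0.000224). Over the 9 bottle arrays the leader and CPA1 followed each other with r = 0.928, given as a description since both probe sets read 1 messenger on the same arrays.

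The remaining higher genes have smaller differences, little known function or both. YHR138C, a relative of the inhibitor of vacuolar protease B, was well expressed throughout, with a bottle median of 12.77 between 12.47 and 13.39, against 9.95, 10.27 and 10.71 in the reference. YGR201C, a relative of the gamma subunit of translation elongation factor eEF1B, had a bottle median of 12.51 between 9.65 and 13.43, against 9.57, 9.55 and 9.87 in the reference, so its lowest array lay within the reference. YOR186W, YLR012C, YML083C and YGL081W, all of unknown function, had differences of 3.43, 2.92, 3.13 and 2.92. YMR206W differed by 3.44, YJR115W by 2.65, YLR031W by 2.46 and YHR140W by 2.43. The differences of YER079W, YLR108C, YEL073C, YDR042C, YIL055C, YMR196W and YKL162C lay between 2.04 and 2.38. In YDL218W 1 array stood far above the rest, replicate 1 of day 19 at 12.47. The other 8 bottle arrays lay between 6.685 and 9.40, all above the reference values of 4.98, 4.99 and 5.25. Its difference was 2.76, and 1.88 without the replicates 1 of day 7 and day 19.

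The lower genes were led by YAR068W on chromosome I, of unknown function. It lay at 7.40, 7.09 and 7.43 at day 7, 7.84, 7.99 and 8.11 at day 15 and 8.47, 7.73 and 8.08 at day 19, against 13.27, 13.13 and 13.15 in the reference. All bottle arrays were far below the reference, and the difference was -5.39. The yeast genome is known to hold a closely similar reading frame, and the array may not separate the copies.

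YDL241W, also of unknown function, lay at 6.15, 8.05 and 7.36 at day 7, 9.11, 7.86 and 7.85 at day 15 and 8.07, 9.31 and 9.33 at day 19, against 12.21, 12.23 and 12.35 in the reference. YNL058C had a bottle median of 7.58 between 5.17 and 8.51, against 10.37, 10.39 and 10.24 in the reference, and YOL014W one of 9.83 between 6.87 and 11.42, against 12.45, 12.60 and 12.82. The lowest value of all 3 genes was on replicate 1 of day 7. YNR066C differed by -2.48, with a bottle median of 5.66 between 4.60 and 6.82, against 8.75, 8.71 and 7.23 in the reference, where the third array lay nearest to the bottles. YLR179C, a relative of the carboxypeptidase Y inhibitor Tfs1, had a bottle median of 11.03 between 9.34 and 12.25, against 13.25, 13.18 and 13.15 in the reference. YCR101C was the dimmest lower gene, above background on 2 of 9 bottle arrays and on all 3 reference arrays, at 6.52, 6.44 and 5.89.

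Members near the threshold were not set apart from genes just outside it. Just inside lay YLL054C with -2.01, YCR101C with -2.04 and YKL162C with 2.04. Just outside lay YMR114C with 1.99, YKR015C with 1.94 and YLR046C with -1.94. Without the replicates 1 of day 7 and day 19, 37 of the 43 higher genes and 6 of the 9 lower ones still reached a difference of 2.

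The next question was whether these genes changed while the fermentation went on. The rule used the mean over the bottle days and not the differences between them, which were tested with limma over all 5449 genes. No member passed an adjusted p of 0.05 in any of the 3 comparisons of days or in the F-test of any difference among the days. Over all genes 0.128% were called higher and 0.0184% lower at day 19 against day 7, 0% in either direction for the other 2 comparisons and 0.0367% in the F-test. An unadjusted p under 0.05 was reached by 13 members (25.0%) for day 19 against day 7, by 5 (9.62%) for day 15 against day 7 and by 7 (13.5%) for day 19 against day 15, where 12.4%, 10.5% and 11% of all genes did. The F-test gave 11 members (21.2%), against 12.6% of all genes. A gene could pass the rule through a single extreme day or array, so these shares may not be free of the choice of members. The lowest adjusted p among the members was 0.143. The standard error of a member's day difference had a median of 0.485, against 0.292 over all genes, so that for many members a doubling between days could not be detected with 3 arrays a group.

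The calls between days depended on single arrays. Without replicate 1 of day 19 limma called 5 members for day 19 against day 7 (393 of all genes), and without the replicates 1 of both days 7 members (534 of all genes). Then YML083C, YMR244W, YOR338W, YOR365C and YDL241W were higher at day 19 and YNR071C and YPL113C lower. With the same pair left out, 2 members, YNR071C and YOR338W, passed for day 19 against day 15. Without replicate 1 of day 15, YHR140W passed for day 15 against day 7 with a difference of 2.03 (limma, adjusted p = 0.0416). The genes named here were chosen after their values were seen.

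YML083C, of unknown function, came closest to a call with all arrays. It lay at 6.80, 7.05 and 7.26 at day 7, 8.27, 8.75 and 8.01 at day 15 and 8.02, 9.01 and 10.78 at day 19, against 5.27, 4.95 and 5.05 in the reference. Every day 15 and day 19 array was above every day 7 array. The difference of day 19 from day 7 was 2.24 ± 0.528 (limma, standard error, adjusted p = 0.143), and without the replicates 1 of both days 2.74 (adjusted p = 0.00994). Without replicate 3 of day 19, its highest array, it was 1.48 (adjusted p = 0.215). In a fit of the bottle arrays only, the adjusted p was 0.465. YMR244W, with 2.08 ± 0.802 (adjusted p = 0.321), reached 3.34 without the replicates 1 of both days (adjusted p = 0.021). It was 1.43 without replicate 3 of day 19, its highest array (adjusted p = 0.631). With bottle arrays only its adjusted p was 0.573.

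The sugar epimerase relative YNR071C went the other way, with a difference of -2.62 ± 0.700 of day 19 from day 7 and -2.99 ± 0.700 from day 15 (limma, standard error, adjusted p = 0.200 and 0.218). With bottle arrays only the adjusted p was 0.512 and 0.629. Without the replicates 1 of day 7 and day 19 the differences were -2.09 and -2.05 (adjusted p = 0.0222 and 0.0322). YNR014W, of unknown function, behaved much alike across the bottle arrays (r = 0.973 over 9 arrays and 0.958 over the 7 without that pair). It lay at 11.38, 12.23 and 11.86 at day 7, 11.81, 12.09 and 12.04 at day 15 and 7.60, 11.34 and 10.16 at day 19, against 8.29, 9.22 and 9.45 in the reference. Its replicate 1 of day 19 was thus below all reference arrays, and the difference of day 19 from day 7 was -2.12 ± 0.719 (adjusted p = 0.270). Without that array it was -1.07 (adjusted p = 0.139), and without the replicates 1 of both days -1.30 (adjusted p = 0.0837).

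Of the lower genes, YDL241W was less low at day 19 than at day 7, by 1.72 ± 0.504 (limma, standard error, adjusted p = 0.207). YAR068W was higher on every day 15 and day 19 array than on any day 7 array, with 0.78 ± 0.214 for day 19 against day 7 (adjusted p = 0.201). The gene with the largest difference from the reference, YHR033W, differed by 0.26 ± 0.590 and YMR090W by -0.04 ± 0.193 between the same days (adjusted p = 0.886 and 0.947). Without the replicates 1 of both days, YHR033W was lower at day 19 than at day 7 and YMR090W higher. For day 19 against day 7 the arrays did not overlap for 7 members that were higher and 3 that were lower, where 5.87% and 6.11% of all genes did not. For day 15 against day 7 this held for 4 and 1 members (6.17% and 9.1% of all genes), and for day 19 against day 15 for 1 and 4 (7.8% and 4.88%).

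**Figure D3:**
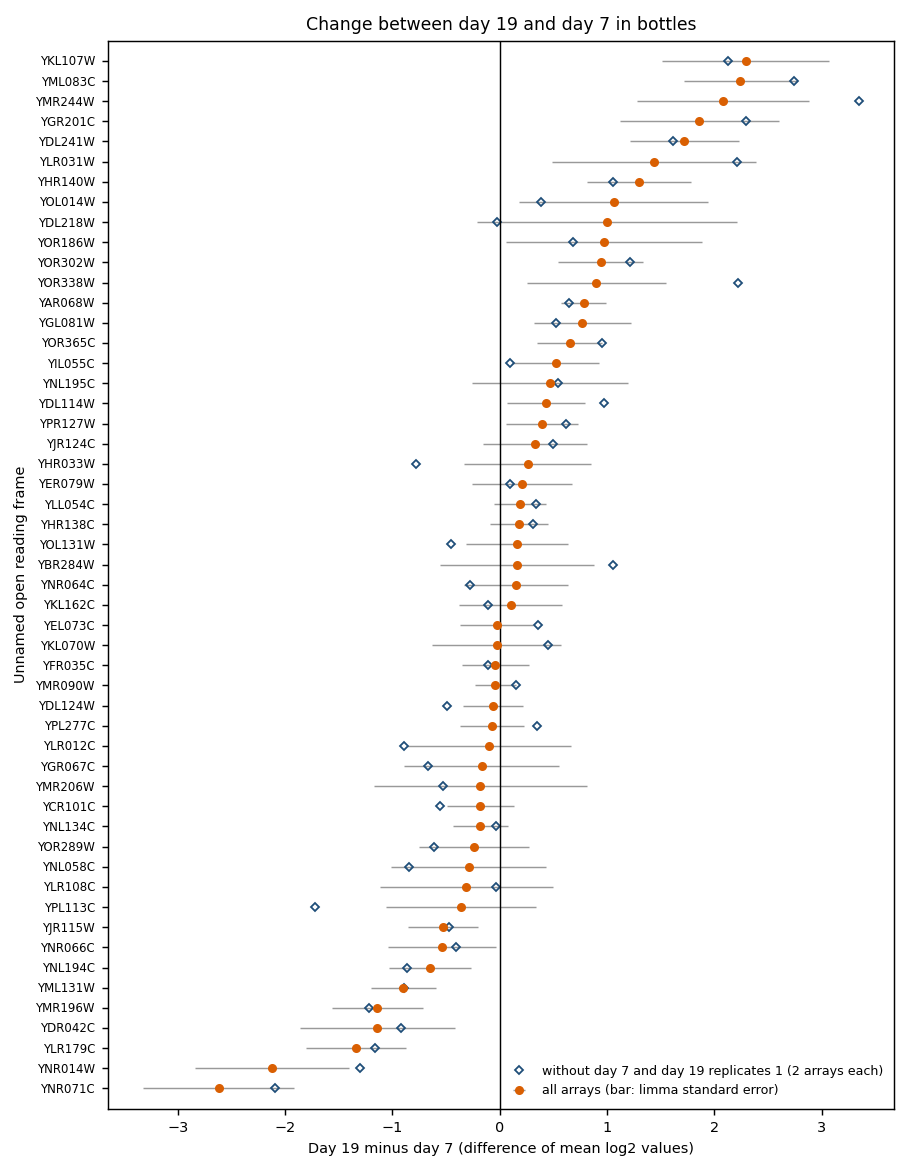
Circles give the difference of mean log2 values, day 19 minus day 7, for each of the 52 genes with its limma standard error, and diamonds the same difference from the 2 arrays left in each group without the replicates 1. Most circles lie within 1 of 0, YNR071C at -2.62 and YKL107W at 2.29 are the extremes, and for YMR244W and YOR338W the diamond lies more than 1 to the right of the circle.

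Seen from the reference, a difference of at least 2 was reached by 37 of the 43 higher genes at day 7, 39 at day 15 and 36 at day 19 (6.35%, 7.78% and 7.36% of all genes), which the rule makes likely. It was reached on each of the 3 days by 27 genes, on 2 days by 15 and on a single day by 1. The median difference was 2.57 at day 7, 2.96 at day 15 and 2.86 at day 19, with the same 3 reference arrays behind all of them. Of the 9 lower genes 7, 7 and 6 were at or below -2 at day 7, day 15 and day 19 (1.73%, 2.66% and 2.39% of all genes), 5 of them on every day. Spread among bottle arrays was wide: the standard deviation over the 9 arrays had a median of 0.739 in the members and 0.428 over all genes. Replicate 1 of day 19 gave the highest bottle value for 13 members and the lowest for 9, and replicate 1 of day 7 for 10 and 10. Over all genes day 19 replicate 1 was highest for 18.8% and lowest for 16.6%, day 7 replicate 1 for 15.2% and 13.4% and day 19 replicate 3 for 15.3% and 15.2%. Replicate 3 of day 19 was highest for 7 members and lowest for 4.

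Several members have a duplicate elsewhere in the genome, and the pairs were chosen with the members' values known. Only duplicates with a standard name lie outside the rule: YJL070C and YOR389W are unnamed, were screened by it and fell short, so they are left out of the count. Of the 6 duplicates with a standard name, 4 were called higher at day 7, 4 at day 15 and 3 at day 19 against the reference and 0 lower on each day (limma, adjusted p under 0.05). The calls without the replicates 1 of day 7 and day 19 were 3, 5 and 3 higher, with 1 lower at day 15. Over all genes 19.7%, 21.4% and 22.7% were called higher on those days and 17.1%, 23.5% and 20.8% lower, with the same reference arrays in each comparison. ECM13, the duplicate of YJR115W, differed by 4.05 ± 0.465 at day 7 (limma, standard error, adjusted p = 0.000117), above the 2.68 of YJR115W at that day. FUN19, the duplicate of YOR338W, differed by 2.10 ± 0.356 (adjusted p = 0.00123), and YOR389W, the duplicate of YPL277C, by 1.97 ± 0.245 (adjusted p = 0.00019).

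The neighbouring genes YNL194C and YNL195C have duplicates that are likewise neighbours, FMP45 and HBT1. FMP45, another membrane protein of the Sur7 family, lay at 12.86, 10.26 and 12.13 at day 7, 9.10, 11.96 and 11.96 at day 15 and 13.32, 9.32 and 7.07 at day 19, against 7.16, 6.89 and 6.53 in the reference. It was higher by 4.89 ± 1.32 at day 7 and 4.15 ± 1.32 at day 15 (limma, standard error, adjusted p = 0.0142 and 0.0241), and the 3.05 ± 1.32 of day 19 did not pass (adjusted p = 0.0808). The day 19 value was 1.34 without replicate 1 of that day (adjusted p = 0.281) and 4.46 without replicate 3 (adjusted p = 0.0169). The day 15 call was lost without replicate 2 or 3 of that day (adjusted p = 0.0897 and 0.0866) and without any of the reference replicates 1, 2 and 3 (adjusted p = 0.0529, 0.0602 and 0.0674). HBT1, with a role in cell shape during mating, ranged from 7.03 to 13.56 on the bottle arrays, against 6.95, 6.96 and 7.32 in the reference, and passed on no day with all arrays. It passed at day 7 without replicate 2 of that day (5.11, adjusted p = 0.0322), and at day 15 without replicate 1 of that day (4.85, adjusted p = 0.0477) or of day 19 (3.64, adjusted p = 0.0424). Both duplicates thus spread far more over the bottle arrays than YNL194C and YNL195C did.

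Other pairs split. PRO1 had a bottle median of 11.16, with 9.21 and 9.45 on the replicates 1 of day 7 and day 19, against 11.38, 11.51 and 11.65 in the reference, with a difference of -0.97 ± 0.556 at day 7 (limma, standard error, adjusted p = 0.190), beside 6.22 for YHR033W. Without the replicates 1 of day 7 and day 19, PRO1 differed by -0.30 at day 7 (adjusted p = 0.222), and its day 15 difference of -0.44 passed (adjusted p = 0.0496). YJL070C, the duplicate of the AMP deaminase relative YBR284W, differed by -0.06 ± 0.249 at day 7 (adjusted p = 0.873), beside 2.13 for YBR284W. PRM5, the duplicate of the lower gene YNL058C and known as a gene induced by pheromone and by cell wall stress, went the opposite way: it was higher by 2.06 ± 0.682 at day 7, 3.84 ± 0.682 at day 15 and 4.44 ± 0.682 at day 19 (adjusted p = 0.0351, 0.00131 and 0.00059), while YNL058C stood at -3.07, -2.59 and -3.36. The day 7 call of PRM5 was lost without any of the day 7 replicates 1, 2 and 3 (adjusted p = 0.0614, 0.0853 and 0.0769) and without reference replicate 1 or 2 (adjusted p = 0.120 and 0.113). YMR206W and YNR014W are duplicates of each other and both members, with differences of 3.44 and 2.18, but they did not follow each other over the bottle arrays (r = -0.282 over 9 arrays, 0.457 over the 7 without the replicates 1 of day 7 and day 19).

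**Figure D4:**
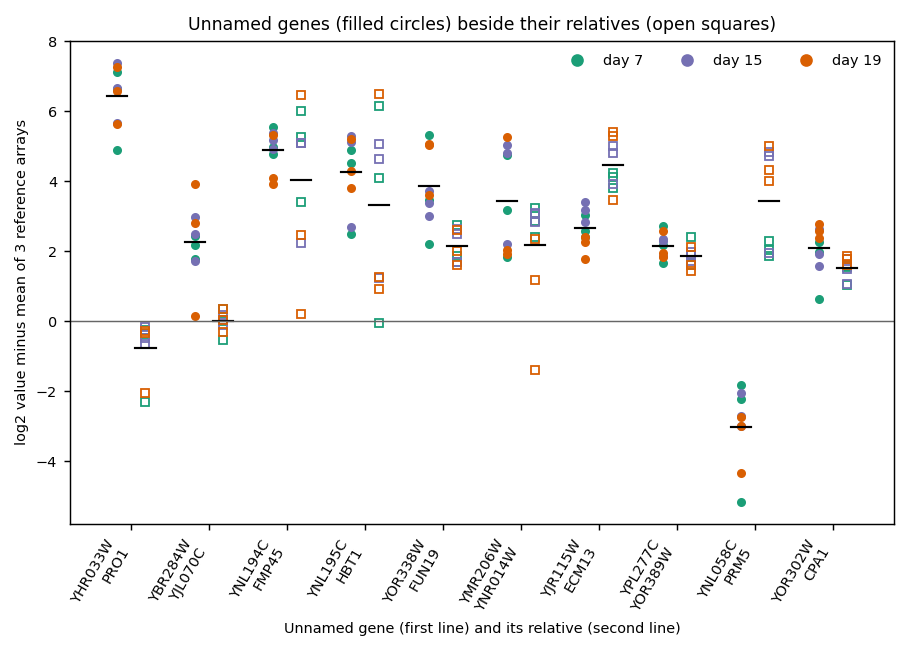
For each pair, filled circles are the unnamed gene and open squares its duplicate, or CPA1 for its leader YOR302W, on the 9 bottle arrays, as log2 value minus the mean of the 3 reference arrays, with black bars for the means. YJL070C stays near 0 beside YBR284W, and PRO1 lies at or below 0 beside YHR033W, lowest on the replicates 1 of day 7 and day 19; PRM5 lies above 0 where YNL058C lies below it, and FMP45 and HBT1 spread from about the reference level to well above it.

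Neighbouring genes were compared through the order of genes in RefSeq, since the arrays' files name no genome build and coordinates are not given here. Of 76 measured neighbours of higher members, 10 also had a difference of at least 2 in the same direction (13.2%). For genes with a standard name and a difference of at least 2 the share was 11.5%, and over all genes 6.79%. Besides YNL194C and YNL195C, which count for each other, these were SLZ1 beside YNL195C with 4.83, PIR3, a cell wall protein, beside YKL162C with 4.28, HXT17, of the hexose transporter family, beside YNR071C on the opposite strand with 4.15, SPS100, known from sporulation, beside YHR138C with 3.51, GAS4 beside YOL131W with 2.79, YPL278C beside YPL277C with 2.46, GSP2, a Ran GTPase, beside YOR186W with 2.06 and NRG1, a repressor of glucose-repressed genes, beside YDR042C with 2.01. SLZ1, YNL195C and YNL194C thus form a run of 3 genes on 1 strand with differences above 4. YPL278C was read by a probe set with sequence shared with other genes, so its difference may not be its own. Around the lower gene YLR179C the neighbours split: SAM1, for S-adenosylmethionine synthetase, stood at -2.02 and TFS1, the relative of YLR179C, at 2.13.

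Some members sit near chromosome ends. Of the 52, 11 lay within 20 protein-coding genes of an end (21.2%), against 16.8% of the 339 unnamed genes and 9.7% of all genes tested. They comprise 6 of the 43 higher and 5 of the 9 lower genes, which are YAR068W, YDL241W, YCR101C, YLL054C and YNR066C. Coding length had a median of 930 bases in the higher genes, close to the 951 of the 339 unnamed genes, and of 606 in the 9 lower genes. It was 1293 in the 4950 genes with a standard name. Unnamed genes passed the thresholds of the rule at 12.7% upward and 2.65% downward, and genes with a standard name at 6.55% and 1.64%.

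For the leading members the genes most alike over the 9 bottle arrays were looked up among 4896 genes with a standard name and above background on all of them, and r is given as a description, since all values come from the same arrays. YNR071C was most like HXK1, a hexokinase (r = 0.948, and 0.986 without the replicates 1 of day 7 and day 19), and MRK1, a kinase related to glycogen synthase kinase 3 (r = 0.945 and 0.985), and then ACF2 (r = 0.940 and 0.921). YNL195C was most like GPX1, a peroxidase (r = 0.977 and 0.986), and SPG1, known from stationary phase (r = 0.959 and 0.957), and then FRE2 (r = 0.940 and 0.934). YNL194C was most like BBC1 (r = 0.969 and 0.957), ROM1 and GCY1, and YKL107W most like PEX15, for a peroxisome membrane protein (r = 0.974 and 0.954), BRF1 and HEF3. YHR033W was most like MVB12 (r = 0.956 and 0.921), TMT1 and ARO10, an enzyme of amino acid breakdown to fusel alcohols. YOL131W was most like HUA2 (r = 0.943 and 0.944), NAS6 and its neighbour GAS4 (r = 0.936 and 0.761). Of the lower genes, YNL058C was most like CLB2, the mitotic cyclin gene (r = 0.978 and 0.947), ERD2 and HEK2. CLB2, ERD2 and HEK2 stood at bottle minus reference differences of -2.92, -0.61 and -0.94. YAR068W was most like NEM1 (r = 0.958 and 0.938), SWF1 and DGA1, YDL241W most like PHO86 (r = 0.955 and 0.904), CYS4 and UAF30, and YOL014W most like GLE2 (r = 0.967 and 0.946), GRX3 and BTS1. NEM1, PHO86 and GLE2 stood at differences of 0.60, 0.19 and -0.74, so likeness over the bottle arrays need not go with a like difference from the reference. For the higher genes the first-named gene ranged from about 0 for HUA2 to 2.79 for GPX1. Among the members themselves the closest opposite pair was YKL107W and YLR179C, with r = -0.992.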

How the data were processed

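Total RNA, 5 µg per array, was labelled with biotin for 12 single-colour Affymetrix arrays, per the labels' protocols. The authors deposited log2 values per probe set; the submitters' processing notes name RMA, and its version is not given in the sources used here. Nothing was rescaled. The annotation paired 5498 of 10928 probe sets with 1 S. cerevisiae gene. The brightest was kept per gene, or the one with sequence of its own for unnamed genes, which left 5449 genes. The 1746 S. pombe probe sets gave the background of each array, their 0.95 quantile (4.50 to 4.82). A fold is "at least" where no array of the lower group exceeded it.

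Day and reference differences came from limma 3.58.1 under R 4.3.3, as 1 model of 4 groups (lmFit, eBayes, 8 residual degrees of freedom), with Benjamini-Hochberg adjustment over all genes and calls at adjusted p under 0.05. The test was checked on simulated data. Members, roles, duplicates and lists were chosen with earlier results of these data known. Genes named are the 10 largest differences in each direction (9 lower), those nearest the threshold, duplicates, neighbours and, chosen after their values were seen, day differences and others by role. Same-numbered arrays were not treated as pairs, since the labels do not say whether they share an assay. Correlations of same-numbered deviations ran from -0.277 to 0.414 and leave this open. Precision is set by 3 arrays per group; read depth does not apply. Protein and promoter sequences were not used here. Python 3.11.15 with matplotlib 3.10.9 drew the figures.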

Additional observations from a re-analysis of the deposited data

Results flagged for a closer look

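Unnamed genes outside the rule also passed its thresholds, as signals in probe sets that the comparisons did not use. Of 21 unnamed genes' probe sets whose suffix marks sequence shared with other genes, 4 did, with differences of bottles minus reference of 2.14 for YAR009C, -2.77 for YEL076C, 2.18 for the second probe set of YPL277C and 2.46 for YPL278C. The second probe set of YPL277C is brighter than the one reported above, with means of 11.36 in the bottles and 9.18 in the reference, against 6.04 and 3.88. Of 129 probe sets of genes whose systematic name ends in a further letter, 11 passed. The largest difference was 4.85 for YGR174W-A, followed by 3.24 for YNL277W-A, 3.06 for YDR524W-C and 3.02 for YER039C-A. The others higher in the bottles were YPL119C-A with 2.76, YOR032W-A with 2.63, YBR085C-A with 2.29, YGR109W-B with 2.27, YMR175W-A with 2.09 and YGL258W-A with 2.03. YBR196C-B was lower with -2.002. These values are differences of means on the log2 scale with no test.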

How the results depend on the processing

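With all arrays no member was called between bottle days. The count stayed at 0 in all 4 tests under quantile normalization, centring of each array on its median or on the S. pombe probe sets, the filter on dim genes, no shared-sequence probe sets, eBayes with trend and robust settings, bottle arrays only and adjusted p under 0.01, and also with the replicate number as a block, where it was 0. With array weights limma called 5 members for day 19 against day 7, 16 for day 15 against day 7, 12 for day 19 against day 15 and 21 in the F-test, against 444, 1474, 809 and 1823 of all genes; the weights ran from 0.123 to 14.05 and their estimate stopped before it converged. Without the replicates 1 of day 7 and day 19 together the counts were 7, 0, 2 and 4. With single arrays left out they ranged from 0 to 5, 0 to 1, 0 to 0 and 0 to 1, the 5 without day 19 replicate 1. The number of members was 86 at a difference threshold of 1.5, 27 at 2.5 and 32 with all 3 day means past 2. It ranged from 47 to 57 with single arrays left out and was 43 under quantile normalization, with 31 higher and 12 lower. The day differences of members recomputed under these alternatives were those with an unadjusted p under 0.05 (limma), and they kept their sign. Some others did not. The differences of day 19 from day 7 for YDL218W, YHR033W, YOL131W, YNR064C and YKL162C lay between 0.10 and 1.00 with all arrays. They were negative without the replicates 1 of both days. Those of YKL070W, YMR090W, YEL073C and YPL277C lay between -0.07 and -0.03 with all arrays and were positive without that pair. Leaving out arrays for the duplicates and CPA1 was an alternative chosen after seeing the data. There YJL070C, with no call, changed sign: its differences from the reference ranged between -0.27 and 0.18 at day 7, -0.03 and 0.10 at day 15 and -0.14 and 0.19 at day 19 with single arrays left out, and the day 7 value was 0.18 without the replicates 1 of day 7 and day 19 together. The cause of the changed counts was not tested.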
